A study of Mus musculus with 24 samples.

Results

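The wall of the gut holds its own nervous system, and 8 genes that mark its cells were followed here in the mouse colon. Elavl4 and Uchl1 mark neurons, Ret is a receptor of developing and mature enteric neurons, Vip and Nos1 make transmitters, S100b and Sox10 mark glia, and Kit marks the interstitial cells of Cajal that pace the muscle. They were taken by gene name, as 8 of the 27962 gene names on the array, and were read by 11 of its 41174 probes. Elavl4, Uchl1 and Sox10 had a pair of probes each, and the probe with the higher mean intensity stood for the gene.

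RNA of whole colon and whole liver was measured on two-colour arrays in female C57BL/6 mice that were killed at 12 weeks of age. All mice had mothers that ate a high-fat diet with little selenium and folate (HF-low) from 7 days before mating until weaning at about day 28. The HF-low-low group stayed on that diet, and the HF-low-suf group received a high-fat diet with adequate selenium and folate. Each group had 6 mice, each mouse gave a colon and a liver, and all were fasted and re-fed before sampling. There were therefore 4 groups of 6 arrays, and no group was fed the adequate diet from before birth. Each sample was labelled with Cy3 and compared with a Cy5 reference, which was a pool of intestine and liver RNA of the same 12 mice, with no dye swap. A value below is the log2 ratio of sample to reference after background correction and loess within each array. With these steps and no dye swap, 0 need not mean as much as in the pool. It orders samples for a given probe and says nothing about the level of one gene against another.

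The enteric nervous system lies in ganglia between the muscle layers and under the mucosa, where neurons are wrapped by glia. Its inhibitory motor neurons release vasoactive intestinal peptide, made from Vip, and nitric oxide, made by the neuronal synthase Nos1, and both relax the smooth muscle. Interstitial cells of Cajal need the receptor tyrosine kinase Kit, sit beside the nerve endings and set the slow-wave rhythm of the muscle. Glia depend on the transcription factor Sox10 and contain the calcium-binding protein S100b, and neural crest cells need Ret, the receptor for GDNF, to reach the gut. In bulk tissue, fewer cells of a type and less RNA per cell cannot be told apart.

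The probes are 60-base oligonucleotides, and the array files place them on the mouse build mm7. They do not say whether a probe lies in an exon or a UTR. The sequences below are shown because probes of the same gene gave different readings, or because the gene's result rests on that probe alone. The brighter Uchl1 probe lay at chr5:66042692-66042752 on the plus strand and the brighter Sox10 probe at chr15:79238027-79238086 on the minus strand. Both contain the polyadenylation hexamer, in capitals, in these 30 bases around it:
Uchl1, brighter probe: cttaaaaggaagAATAAAactttgctggtg
Sox10, brighter probe: cagcgataccttAATAAAgtacgtagctct

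The dimmer probes of the same genes lay upstream and hold no such hexamer. That of Uchl1 covered chr5:66038170-66039261, a span of 1092 bases for 60 bases of probe, so its sequence is split in the genome. That of Sox10 lay at chr15:79239405-79239464 on the minus strand, and that of Elavl4 at chr4:109588017-109588076 on the minus strand. S100b was read by a probe at chr10:75915615-75915674 and Nos1 by a probe at chr5:117181816-117181875, both on the plus strand:
Uchl1, dimmer probe: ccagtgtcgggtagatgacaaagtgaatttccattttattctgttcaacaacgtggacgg
Sox10, dimmer probe: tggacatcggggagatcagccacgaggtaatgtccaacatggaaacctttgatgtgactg
Elavl4, dimmer probe: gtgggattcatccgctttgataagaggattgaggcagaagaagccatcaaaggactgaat
S100b, only probe: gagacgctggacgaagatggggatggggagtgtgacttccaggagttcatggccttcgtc
Nos1, only probe: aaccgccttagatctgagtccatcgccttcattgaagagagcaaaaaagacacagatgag

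Some arrays stood apart. The reference channel of HF-low-suf replicate 5 was much brighter than on the remaining colons, with a median Cy5 over background of 18.2 as opposed to 6.11 to 7.48. Liver HF-low-suf replicate 4 also had a bright reference, with a median Cy5 over background of 12.7 as opposed to 5.43 to 7.62 on the remaining livers, and 8.75% of its spots were marked as outliers, against at most 0.768% elsewhere. On 3 livers (HF-low-low replicate 6 and HF-low-suf replicates 4 and 5) the log2 ratios spread least over the probes, with an SD of 0.527 to 0.600 against 0.811 to 0.968 on the other 9 livers. For the sample channel, median Cy3 over background ran from 3.88 to 7.22 on the colons and from 3.77 to 5.78 on the livers. The tissue labels fitted the marker genes. All 6 hepatocyte genes on the array were lower in the colon, all 12 smooth muscle and all 11 epithelial genes were higher, and no gene of a list of 9 mast cell genes was well above background on 6 or more colons. Mast cells also carry Kit.

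Colon was first compared with liver, an organ with no such ganglia. Of the 8 genes, 6 were higher in the colon (Elavl4, Uchl1, Vip, S100b, Sox10 and Kit) at an adjusted P below 0.05, and Ret and Nos1 did not pass the test. Of all probes, 7812 (19.0%) were higher and 7971 (19.4%) were lower in the colon. With the processed signals of the image software the split was 11964 higher and 7573 lower, with the median of all probes moved to 0.19, and with median centring it was 9226 and 4521. For Elavl4, Uchl1, Vip and Kit every colon lay above every liver, which was the case for 2673 probes (6.49%). The median difference of the 8 genes was 2.32 on the log2 scale, against -0.02 over all probes. The 6 called genes were well above background on all 12 colons. Of the 13836 probes that were so, 5770 were higher in the colon, with a median difference of 0.11. Without the 3 livers, without the colon array of HF-low-suf replicate 5 or without both, the count was again 6 of 8. With the dimmer probe of genes that had 2 it was 5, since Sox10 did not pass.

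**Figure D1:**
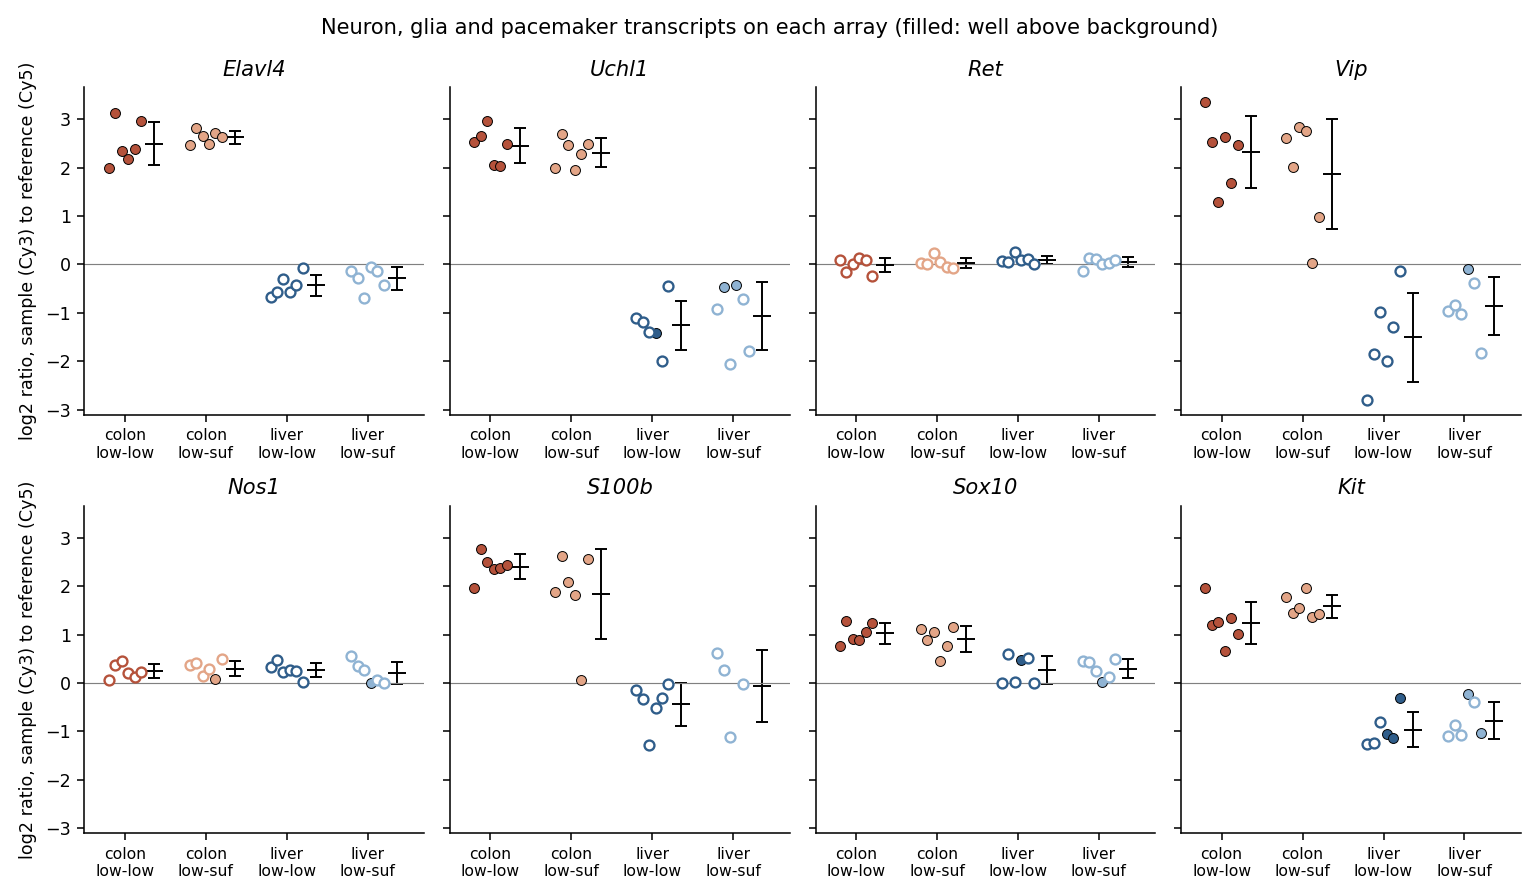
Log2 ratio of sample (Cy3) to reference (Cy5) of the 8 genes on each of the 24 arrays, 1 panel per gene and 6 arrays per group (4 for S100b in the HF-low-suf livers), with mean ± SD at the right of each group. Filled points were well above background and open points were not. Elavl4, Uchl1, Vip and Kit separate all colons from all livers, while Ret and Nos1 stay near 0 and mostly open in both tissues.

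Elavl4 encodes the neuronal RNA-binding protein HuD. Its log2 ratio was 1.996 at the lowest, 2.55 at the median and 3.13 at the highest in the colons, and -0.70, -0.36 and -0.06 in the livers. It was well above background on 12 of 12 colons and on 0 of 12 livers. The difference was 2.92 ± 0.11 (SE; limma, adjusted P = 2.66e-18), and because the liver was dim on every array the colon is given as at least 3.93-fold higher. Every mouse had the higher value in its colon, and the exact sign-flip permutation P was 0.000488, the smallest that 12 mice allow. The dimmer probe moved the same way by 0.68 ± 0.11 (adjusted P = 1.06e-05) but was well above background on 3 colons only.

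Uchl1 encodes the ubiquitin hydrolase PGP9.5, which is abundant in neurons. Its log2 ratio ran from 1.95 through a median of 2.48 to 2.97 in the colons and from -2.06 through -1.15 to -0.42 in the livers. The groups did not overlap, and 12 colons and 3 livers were well above background. The difference of 3.54 ± 0.17 (adjusted P = 1.32e-15, n = 12 mice, exact permutation P = 0.000488) was an 11.7-fold higher ratio in the colon. Its dimmer probe, which lies upstream, also separated all colons from all livers, by 2.67 ± 0.18 (adjusted P = 7.51e-13), at least 3.59-fold. By slide, with the replicate number used as the slide, the colon minus liver difference of the brighter probe was 2.92 to 4.45. All 6 slides thus showed it.

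Ret was not well above background on any array of either tissue, although its 10 spots per array were averaged. Its log2 ratio was -0.24 to 0.23 in the colons and -0.14 to 0.25 in the livers. The difference was -0.06 ± 0.07 (limma, adjusted P = 0.561), with the colon higher in 5 of 12 mice (exact permutation P = 0.177). With no array well above background, the data give no level of Ret to compare.

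Vip was the most variable of the bright genes. Its log2 ratio was 0.02 at the lowest, 2.50 at the median and 3.35 at the highest in the colons, and -2.80, -1.01 and -0.09 in the livers. The lowest colon, HF-low-suf replicate 5, lay just above the highest liver, so the tissues did not overlap. All 12 colons were well above background, but of the livers only HF-low-suf replicate 4 was, the array with the bright reference. The difference was 3.28 ± 0.30 (adjusted P = 7.27e-10), and because 11 of 12 livers were dim the colon signal is given against the dimmest measurable signal, as 4.17-fold higher. It was higher in 12 of 12 mice (exact permutation P = 0.000488). Nos1, in contrast, was well above background on 1 colon and 1 liver, HF-low-suf colon 5 and HF-low-suf liver 4, which are the arrays with a bright reference. It differed by 0.03 ± 0.08 (adjusted P = 0.808), with the colon higher in 6 of 12 mice (exact permutation P = 0.630).

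S100b had a log2 ratio of 0.06, 2.37 and 2.78 (lowest, median, highest) in the 12 colons and of -1.29, -0.24 and 0.63 in 10 livers. All 12 colons were well above background. The only livers that were are HF-low-suf 4 and 6, and these spots were marked as outliers by the image software and left out of this fit, so all 10 livers in it were dim. The difference was 2.36 ± 0.23 (adjusted P = 6.70e-09), at least 4.21-fold, and the colon was higher in 10 of 10 mice with both values (exact permutation P = 0.00195). A single colon, HF-low-suf replicate 5, lay among the livers. The other 11 colons, at 1.82 to 2.78, all lay above every liver kept in the fit, and without that array the difference was 2.55. In the livers left out the raw Cy3 signal was 1064 (HF-low-suf 4) and 971.0 (HF-low-suf 6), within the 658.5 to 1719 of the colons. Their Cy5 signals were 4857 and 380.7. The separation is therefore stated for the 10 livers kept only.

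Fat cells also contain S100b. The mean log2 ratio of 6 adipose genes was 2.36 to 3.41 in the other 11 colons and 1.26 in HF-low-suf replicate 5. In the livers it was 3.23 in HF-low-suf replicate 1, which also had the highest S100b of the 10 livers kept (0.63), and -2.03 to -0.09 in the other 11. The whole adipose list was higher in the colon (7 of 7 genes, median difference 3.51), and its part in the S100b difference was not tested.

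Sox10 showed a smaller difference. Its brighter probe had a log2 ratio of 0.46 to 1.28 with a median of 0.98 in the colons and of -0.01 to 0.60 with a median of 0.34 in the livers. All 12 colons and 2 livers were well above background. The highest livers overlapped with the lowest colons, yet all 12 mice had the higher value in the colon. The difference was 0.68 ± 0.10 (adjusted P = 1.03e-06, n = 12 mice, exact permutation P = 0.000488), 1.60-fold, or 1.44-fold against the dimmest measurable signal, since 10 livers were dim. The dimmer Sox10 probe was not well above background on any array and differed by -0.06 ± 0.11 (adjusted P = 0.734), so the direction rests on the probe that holds the hexamer.

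Kit was measured with 10 spots per array that differed by a median SD of only 0.04 within a colon. Its log2 ratio was 0.65, 1.39 and 1.97 in the colons and -1.26, -1.03 and -0.23 in the livers, with no overlap, and 12 colons and 5 livers were well above background. The colon minus liver difference was 2.29 ± 0.13 (adjusted P = 5.85e-14, n = 12 mice, exact permutation P = 0.000488), 4.88-fold, and was 1.88 to 3.05 by slide. The SD between colons was 0.38, far above that between spots of an array. Each colon was on an array of its own, so differences between mice and between arrays cannot be told apart in it.

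In the 3 livers of narrow spread the genes lay nearer to 0. Vip averaged -0.21 in these and -1.51 in the other 9, Uchl1 -0.53 and -1.37, and Kit -0.31 and -1.06. With these livers left out the differences of Vip, Uchl1 and Kit were 3.59, 3.75 and 2.47. None of the 6 called genes lost its call.

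Other genes of these cells, and their ligands and targets, were read from lists of 7 to 16 genes. Called genes were counted against the 19.0% and 19.4% of all probes. These shares include dim probes, and of the 13836 probes well above background on all 12 colons 5770 were higher in the colon. The lists are not particular to these cells, and the part of other cells in the differences was not tested. All 16 neuronal structure genes were higher in the colon, with a median difference of 1.14. Only 9 of the 16 were well above background on all 12 colons, and 2 were so on no array, so their call rests on dim signals. Tubb3, a neuronal tubulin, differed by 0.88 ± 0.09, Prph (peripherin, a neuronal intermediate filament) by 2.21 ± 0.19 and Elavl3 by 0.94 ± 0.16. The synaptic gene Snap25 was dim on every liver and at least 3.28-fold higher in the colon, and Stmn3 had the largest difference of the list among probes bright on all colons (2.66 ± 0.14) and Vamp2, another synaptic vesicle gene, the smallest (0.80 ± 0.09).

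Of 15 transmitter genes 10 were higher and 1, Npy, was lower in the colon. Only 4 of the 15 were well above background on all 12 colons, and 1 of those called higher was so on no array. Npy was well above background on 1 colon and on no liver (limma, adjusted P = 0.0460), so its lower value rests on dim signals. Penk, the enkephalin precursor, differed by 3.95 ± 0.23, and Gal, which encodes galanin, by 2.38 ± 0.11. Tac1, the substance P precursor, was at least 4.403-fold higher. Chat, which makes acetylcholine, was well above background on 1 colon and differed by -0.24 ± 0.17 (adjusted P = 0.332).

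The list around Ret gave another picture. Of 11 genes, Gdnf, Nrtn and Gfra3 were higher, Gfra1 was lower and 7 did not pass, with a median of 0.05. The ligand Gdnf differed by 0.63 ± 0.20 (adjusted P = 0.0125) and was well above background on 3 colons. Its call was lost under 4 alternatives, with 0.195 (adjusted P = 0.466) under median centring. Gfra3, the co-receptor for artemin, differed by 1.87 ± 0.19. Gfra1, the co-receptor that binds GDNF, was well above background on all 12 livers and on 2 colons, with a difference of -2.98 ± 0.24. The endothelin receptor gene Ednrb was bright on all colons and differed by -0.23 ± 0.11 (adjusted P = 0.0933).

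Of 11 glial genes 7 were higher and 1, Fabp7, was lower (median 0.67). In that list 5 genes were well above background on all 12 colons. Erbb3, a neuregulin receptor gene, differed by 1.81 ± 0.15 and Entpd2, an ectonucleotidase, by 2.39 ± 0.12. Both were also well above background on all 12 livers. The neurotrophin receptor gene Ngfr was bright on all colons and differed by -0.02 ± 0.11 (adjusted P = 0.918). Gfap, the glial filament, was well above background on 1 colon and differed by -0.19 ± 0.18 (adjusted P = 0.486).

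Of 7 pacemaker genes 5 were higher and none was lower (median 1.70). The chloride channel gene Ano1, which the array names Tmem16a, differed by 1.57 ± 0.23, the transcription factor Etv1 was at least 3.09-fold higher and Kitl, the ligand of Kit, at least 4.24-fold higher. The cotransporter gene Slc12a2 had the largest difference among those bright on all colons (2.56 ± 0.22) and the gap junction gene Gja1 the smallest (0.56 ± 0.25, adjusted P = 0.0844). Of 9 genes for receptors and targets of the transmitters 7 were higher (median 1.09), and 5 of the 9 were well above background on all 12 colons. P2ry1, a receptor for purines, differed by 1.91 ± 0.13, Vipr1 by 0.77 ± 0.12 and Gucy1a3, a subunit of the nitric oxide receptor, by 1.35 ± 0.19. In contrast, Vipr2 was not well above background on any array (-0.07 ± 0.13).

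**Figure D2:**
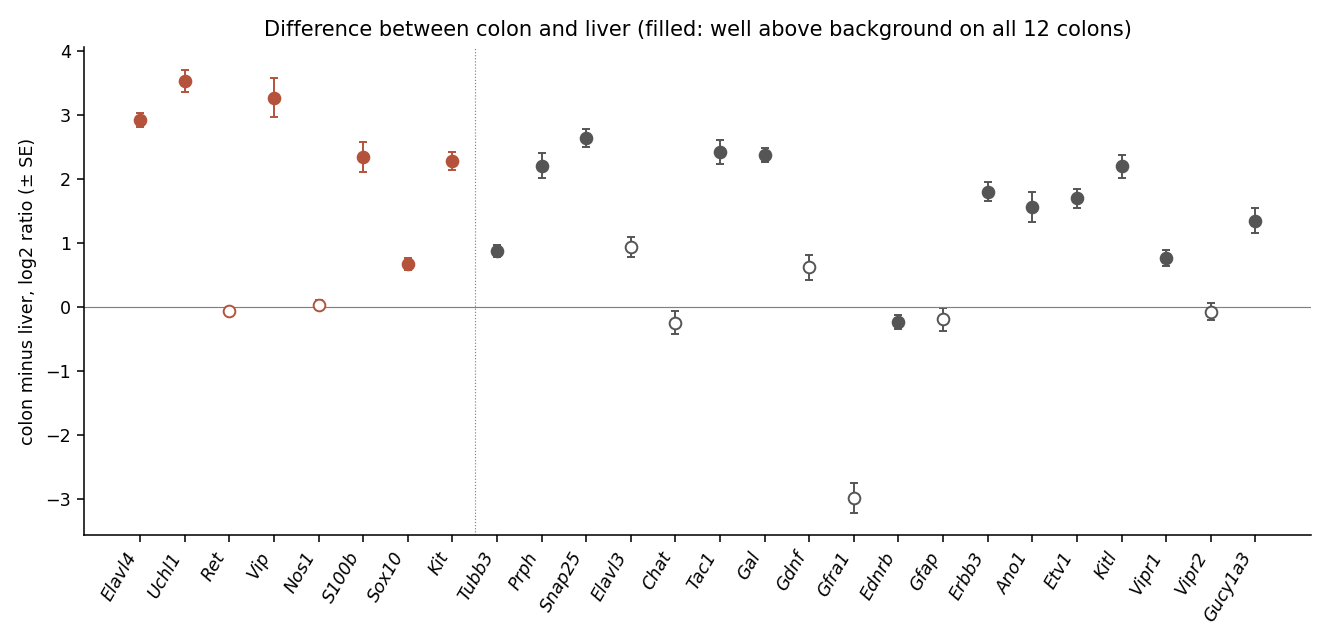
Colon minus liver difference (log2 ratio ± SE, limma over 24 arrays) for the 8 genes, left of the dotted line, and for their partner genes. Filled points were well above background on all 12 colons. Most filled points lie above 0, while Ret, Nos1, Chat, Gfap and Vipr2 are open and near 0 and Gfra1 is at -2.98. Filled points were picked by their colon signal, and of all 13836 probes picked that way 5770 were higher in the colon.

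Post-weaning selenium and folate was then compared within the colon. None of the 8 genes passed the threshold of an unadjusted P below 0.01 with a fold above 1.5, which 69 probes (0.168%) passed. That number was 13 with no background correction, 26 with median centring and 79 with plain background subtraction. At an adjusted P below 0.05 limma called 0 probes (0%) of 41174, and 1228 had an unadjusted P below 0.05, the brighter probes of the 8 genes not among them. The HF-low-suf minus HF-low-low differences of the 8 genes ran from -0.57 to 0.35, 4 of them above 0, with a median of -0.04 against -0.01 over all probes. The adjusted P of all 8 was 0.9999.

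The neuronal genes differed little. Elavl4 was 1.996, 2.36 and 3.13 (lowest, median, highest) in HF-low-low colons and 2.47, 2.64 and 2.81 in HF-low-suf colons, so the latter lay within the range of the former. The difference was 0.13 with a 95% interval of -0.26 to 0.52 (exact permutation P = 0.506, n = 6 per group). Uchl1 was 2.03, 2.51 and 2.97 against 1.95, 2.38 and 2.69, a difference of -0.14 (-0.53 to 0.25, exact permutation P = 0.450). Ret and Nos1, dim in both diets, differed by 0.04 and 0.05 (exact permutation P = 0.571 and 0.545).

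Vip was 1.28, 2.50 and 3.35 in HF-low-low and 0.02, 2.30 and 2.84 in HF-low-suf colons. The difference of -0.46 had a wide interval of -1.41 to 0.50 (exact permutation P = 0.444), and it was -0.09 without HF-low-suf replicate 5. S100b was 1.97, 2.41 and 2.78 against 0.06, 1.98 and 2.62. Its difference of -0.57 (-1.27 to 0.14, exact permutation P = 0.152) was the largest of the 8 genes, and it was -0.21 without that array. On 5 of 6 slides the HF-low-suf colon had the lower S100b.

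Sox10 was 0.75, 0.98 and 1.28 against 0.46, 0.97 and 1.16, a difference of -0.12 (-0.44 to 0.21, exact permutation P = 0.426). Its dimmer probe was lower in every HF-low-suf colon than in any HF-low-low colon (means -0.03 and 0.42), with a limma P of 0.0129 and an exact permutation P of 0.00216, the smallest the design allows. Groups that do not overlap were found for 32 probes (0.0777%). This probe was not well above background on any array, so no fold is given, and its P did not pass the threshold.

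Kit was 0.65, 1.23 and 1.95 in HF-low-low and 1.36, 1.499 and 1.97 in HF-low-suf colons. The lowest HF-low-suf colon thus lay above the HF-low-low median, and the ranges overlapped. The difference of 0.35 (-0.05 to 0.75) had a limma P of 0.0849 and an exact permutation P of 0.102, and HF-low-suf was higher on 5 of 6 slides. It was 0.40 without HF-low-suf replicate 5, 0.12 within replicates 1 to 3 and 0.58 within replicates 4 to 6. On slide 4 alone it was 1.32, and on slides 5 and 6 it was 0.01 and 0.40.

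**Figure D3:**
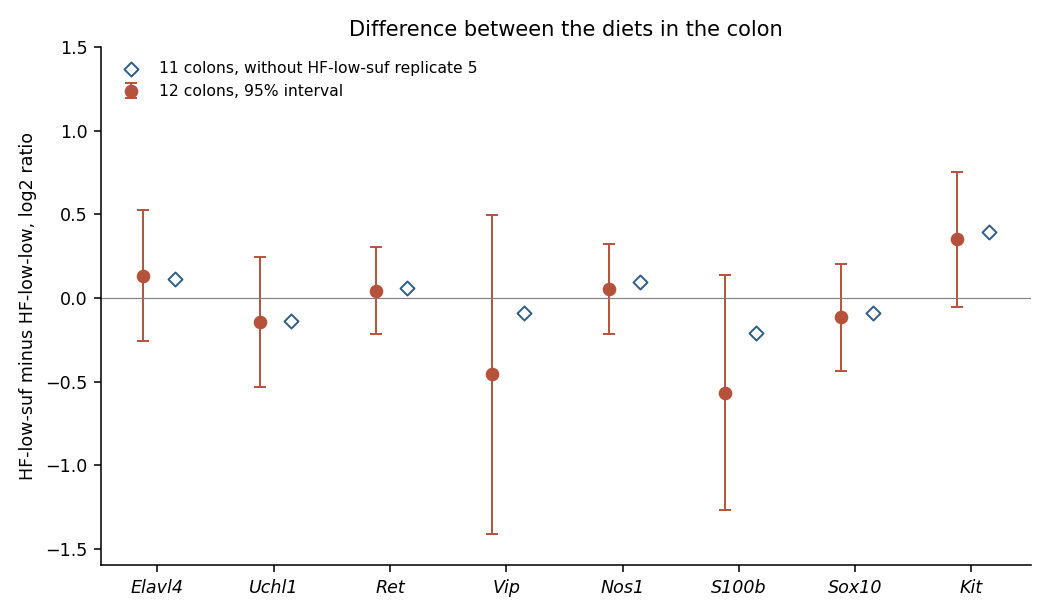
HF-low-suf minus HF-low-low difference in the colon (log2 ratio) of the 8 genes, as circles with 95% intervals over 12 colons and as diamonds over the 11 colons without HF-low-suf replicate 5. Every interval includes 0, and Vip and S100b move toward 0 without that array.

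The raw signals of HF-low-suf replicate 5 were then set beside those of the other colons. For S100b its Cy3 (colon) signal was 1719, above the 658.5 to 1465 of the other 11 colons, while its Cy5 (reference) signal was 5700 against 413.2 to 615.4. For Vip its Cy3 signal of 501.1 was within the 357.2 to 2103 of the others, and its Cy5 signal was 1714 against 371.0 to 504.9. The low S100b and Vip ratios of this array thus went with a high reference signal on the same spots. Its Cy5 signal was also above the range of the other colons for Nos1 (929.8 against 98.4 to 147.4), Ret (403.9 against 91.2 to 127.4), Sox10 (792.6 against 273.1 to 558.8) and Elavl4 (481.4 against 226.1 to 352.9). Those of Kit (1945, range 1543 to 2078) and Uchl1 (3508, range 2479 to 3518) lay inside it. With the Cy3 channel alone the diet difference of S100b was 0.04.

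**Figure D4:**
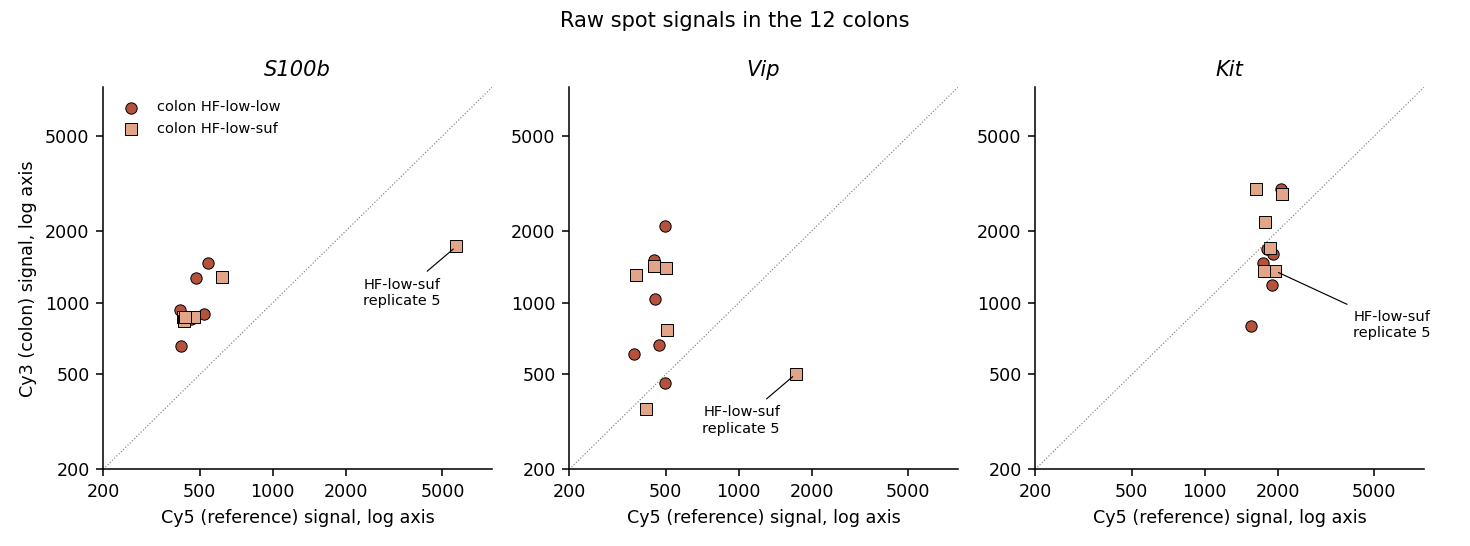
Raw Cy3 (colon) against raw Cy5 (reference) spot signals of S100b, Vip and Kit on the 12 colon arrays, both on log axes, with the line of equal signals dotted. HF-low-suf replicate 5 lies far to the right for S100b (Cy5 of 5700) and Vip (Cy5 of 1714) and among the other arrays for Kit.

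The partner genes gave no diet call either. No gene of the neuronal structure, transmitter, Ret, glial, pacemaker or receptor lists passed the threshold in either direction. Of the neuronal structure genes 13 of 16 had a difference below 0, as had 51.7% of all probes, with a median of -0.09, and none passed. The mean of the 9 bright ones differed by -0.08, and by -0.03 without HF-low-suf replicate 5. Kitl, the Kit ligand, differed by 0.02 and Ano1 by 0.21, and neither passed in limma (adjusted P = 0.9999). The diet difference in the colon was not shown to differ from that in the liver for any of the 8 genes. The largest such contrasts were those of Vip, at -1.11 (limma, adjusted P = 0.804), and S100b, at -0.98 (limma, adjusted P = 0.777). Both include colon HF-low-suf replicate 5, without which the colon diet differences were -0.09 for Vip and -0.21 for S100b. That of S100b also used only 4 HF-low-suf livers.

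Last, co-variation over the 12 colons was examined. All 28 pairs of the 8 genes were correlated, and for Pearson's r 2 had an unadjusted permutation P below 0.05 and 0 an adjusted one. The pairs were Elavl4 with Ret (r = -0.654, P = 0.0209, adjusted P = 0.528; rho = -0.629, P = 0.0326) and Nos1 with S100b (r = 0.543, P = 0.0377, adjusted P = 0.528; rho = 0.650, P = 0.0254). Without the colons farthest from the median of the first gene they had r of -0.596 and 0.554. Without HF-low-suf replicate 5 they had r of -0.646 and 0.459 (unadjusted permutation P = 0.0314 and 0.153), so the latter did not keep its unadjusted P. Centred on the slide they had r of -0.454 and 0.145 (unadjusted sign-flip permutation P = 0.25 and 0.406), so neither kept it there. Each includes a gene that was dim in the colon. Of the 15 pairs among the 6 bright genes 8 were positive and 7 negative.

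The marker pairs of neurons and of glia and the pair of transmitter genes did not pass over the 12 colons. The neuronal pair Elavl4 and Uchl1 had r = 0.279 (permutation P = 0.378; rho = 0.238, P = 0.456). The glial pair S100b and Sox10 had r = 0.485 (permutation P = 0.111; rho = 0.573, P = 0.0546), and 0.361 without the 2 farthest colons. Vip and S100b had r = 0.443 over 12 colons and -0.592 without HF-low-suf replicate 5, so the sign of that pair rested on the array. Vip with Nos1, the other inhibitory transmitter gene, had r = -0.153 (permutation P = 0.636; rho = -0.364) and -0.652 without it (unadjusted permutation P = 0.0316, adjusted P = 0.236).

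The 8 genes were also set against the mean log2 ratios of 11 smooth muscle and 11 epithelial genes, markers of the other layers of the wall. Of 16 relations 2 had an unadjusted P below 0.05 and 0 an adjusted one, and both were with the epithelium. Uchl1 had r = -0.652 (permutation P = 0.0233, adjusted P = 0.187; rho = -0.706, P = 0.0132), -0.626 without the 2 farthest colons and -0.697 without HF-low-suf replicate 5. It was -0.563 within replicates 1 to 3 and -0.389 within replicates 4 to 6, and -0.219 when values were centred on the slide. S100b had r = -0.603 (permutation P = 0.0212, adjusted P = 0.187; rho = -0.580, P = 0.0515) and -0.201 without the 2 farthest colons, so that relation rested on them. No relation with the smooth muscle mean had an unadjusted P below 0.05, that of Kit being r = 0.437 (permutation P = 0.156; rho = 0.259).

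**Figure D5:**
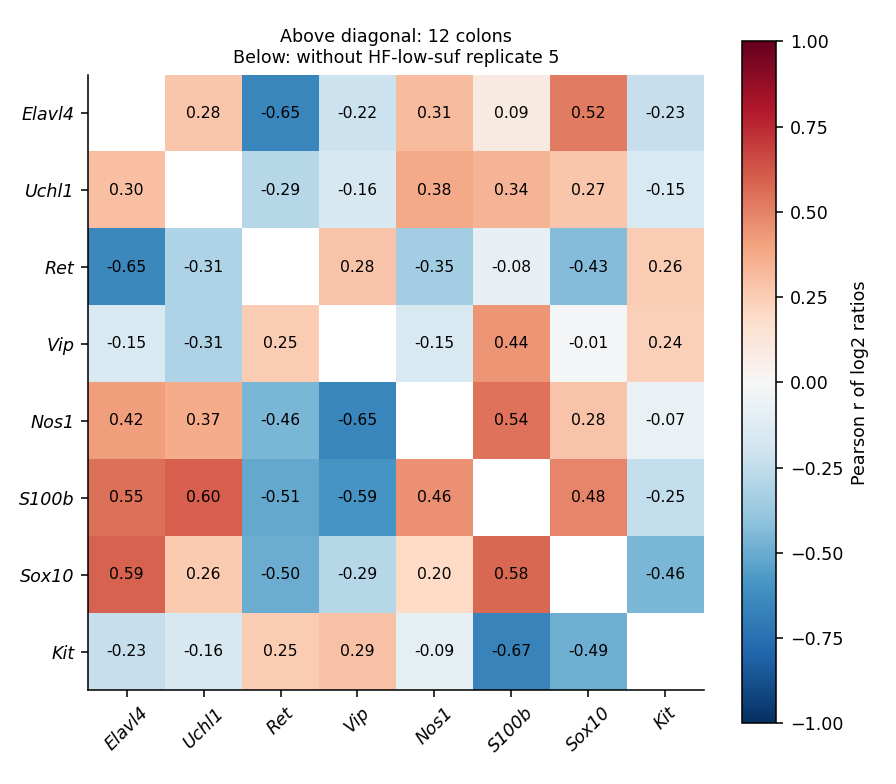
Pearson r between the log2 ratios of the 8 genes over 12 colons (above the diagonal) and over 11 colons without HF-low-suf replicate 5 (below it). Red and blue cells are mixed in both triangles, and Vip with S100b changes from 0.443 to -0.592.

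As a description with no test, the probes whose values over the 12 colons were most like those of each bright gene were sought among 13836 probes bright on all colons. For Uchl1 these were Pcsk2 (r = 0.912), a processing protease of peptide-secreting cells, Penk1 (0.904), the enkephalin precursor, and Cdkl1 (0.902). For Elavl4 they were Ptpn1 (0.927), Ang2 (0.892) and ENSMUST00000096279 (0.885), and for Vip Eif3s6ip (0.969), Thbd (0.945) and Cdc37 (0.941). For S100b they were Mesdc1 (0.943), ENSMUST00000040751 (0.943) and Stmn4 (0.939), and for Sox10 6330419J24Rik (0.909), Slpi (0.870) and Evpl (0.855). For Kit they were Bcas1 (0.956), LOC676870 (0.944) and Slc5a1 (0.942). The arrays shared a reference and a set of slides, so a high r over 12 points among this many probes is no finding.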

How the data were processed

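For each array the authors deposited a scanner output file. The intensity columns taken here were made by the authors with Feature Extraction 9.5.3.1, per the file headers, and hold the raw mean signal of each spot in Cy3 and Cy5 and its median local background, neither background corrected nor normalized. The log10 ratio in the same files was computed by that software and was not used, and its processed intensity was used as an alternative.

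Background was corrected with normexp (offset 50), 1639 of 45018 spots were left out as controls, flagged spots were removed and loess was applied within each array (limma 3.58.1, R 4.3.3). Repeated spots were averaged, which gave 41174 probes. Colon and liver were compared with lmFit and eBayes over 24 arrays, the mouse being a random block (statmod 1.5.0, correlation 0.158), since a colon and a liver with the same number came from the same animal (correlations of their deviations were -0.026 to 0.285). The diets were compared on the 12 colon arrays by the threshold of the study's methods and with Benjamini-Hochberg adjustment over all probes. For single genes a two-sided exact permutation test was run over the 4096 sign flips of 12 mice or the 924 assignments of 12 mice. Correlations used 100000 resamples, or 64 sign flips when centred on the slide. The replicate number was used as the slide wherever a slide is named. The fits were tested on simulated data.

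Probes called well above background are those that the software flagged as such in the Cy3 channel. A lower bound for a fold change was set, per array, by the dimmest signal among probes well above background, after loess and Aquantile of the single channels, and is open to dye bias because dyes were not swapped. Genes named are the 8 genes with all probes, their partners, the genes of each list with the largest and smallest tissue difference and the 3 most alike probes of each bright gene. Some partners and list members are not reported here. Members and lists were chosen with earlier results of these data known. Positions are those of the files, in build mm7. Alternatives covered the background correction, the normalization, the Cy3 channel alone, flagged spots, dim probes, the choice of probe, blocks, sets of slides and each array left out.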

Additional observations from a re-analysis of the deposited data

Results flagged for a closer look

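The S100b log2 ratio of the colon array of HF-low-suf replicate 5 was 0.057, far from the nearest of the other HF-low-suf colons at 1.82. Its gap made up 0.69 of the range of the 6 arrays. It was the 1 far sample among 12 groups of 6 arrays examined for the 6 bright genes in each colon group, where 0.6 would be expected by chance. The array also had the brightest Cy5 channel, and its Cy5 signal for S100b was 5700 against 413.2 to 615.4 on the other 11 colons.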

How the results depend on the processing

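Of 1649 recomputed values, 1603 kept their side of the threshold and did not change sign by more than their SE, 6 were weaker, 10 stronger and 30 reversed. The count of 6 genes higher in the colon was 5 with the dimmer probes and 6 under every other alternative, and that of 0 with a diet call was 0 under all, each mouse or colon left out included. Probes past the diet threshold numbered 13 with no background correction and 26 with median centring, against 69. Context lists differed in 2 cases: the Ret list had 5 genes higher in the colon with the processed signals, and the adipose list 1 diet call with the slide as a replicate block. Pairs with an adjusted P below 0.05 numbered 3 with the Cy3 channel alone, 1 with median centring and 0 to 1 with each colon left out (1 without HF-low-suf replicate 3, Elavl4 with Ret at r = -0.841). With the mouse as a fixed replicate block Uchl1 differed by 3.54 and Kit by 2.29 between tissues, and with the slide as a replicate block S100b differed by -0.57 and Kit by 0.35 between diets. The blocks are balanced for these genes and cannot move such differences, so only the SE and P could change. Same-slide colons of the 2 diets came from different mice and correlated at -0.0851 to 0.238. That range overlaps the -0.026 to 0.285 of a colon and a liver of the same mouse, so it cannot show whether the slide pairs them. The block changed no call of the 8 genes.

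Reversed between tissues were, with the processed signals, Ret (0.181) and Vipr2 (0.23), with median centring Ednrb (0.13), with the Cy3 channel alone Nos1 (-0.11), with the dimmer probe Sox10 (-0.064), and within replicates 1 to 3 Nos1 (-0.072). Reversed between diets were Nos1 with the processed signals (-0.078) and median centring (-0.17), Gal (0.17) and Gfap (-0.13) with median centring, and S100b (0.041), Prph (0.081), Elavl3 (0.00471) and Vipr2 (-0.13) with the Cy3 channel alone. Within replicates 1 to 3 Vip (0.093), Sox10 (0.036), Etv1 (-0.13) and Kitl (-0.31) reversed, and within replicates 4 to 6 Uchl1 (0.047), Gdnf (-0.25) and Vipr2 (-0.12). Of these only Sox10 between tissues had been called. Reversed correlations were Elavl4 with Uchl1 centred on the slide (-0.54, replicate block), Elavl4 with Ret with the processed signals (0.29), Vip with Nos1 with median centring (0.26) and the processed signals (0.38), Vip with S100b without HF-low-suf replicate 5 (-0.592, and 0.567 at the highest with another colon left out) and with Cy3 alone (-0.76), S100b with Sox10 with Cy3 alone (-0.17) and S100b with the epithelium with Cy3 alone (0.15). Gdnf lost its tissue call under 4 alternatives and Elavl3 and Ano1 under 1 each. The cause was not tested. The alternatives on the arrays that stood apart were chosen after seeing the data. The number of arrays and the dim signals of Ret and Nos1 limit the precision.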

Other observations

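Genes of the cells around the nerves gave the following values. Of the 12 smooth muscle genes all were higher in the colon (median 3.14), from Synpo2 (0.57 ± 0.20, adjusted P = 0.0275) to Cnn1, a contractile protein gene (6.51 ± 0.16), among those well above background on all 12 colons. All 11 epithelial genes were higher (median 4.80), from the chloride exchanger gene Slc26a3 (2.07 ± 0.26) to Lgals4 (7.29 ± 0.11). All 8 enteroendocrine genes were higher (median 4.31), from Insl5 (0.98 ± 0.15) to Chgb, a granin of secretory granules (6.51 ± 0.22). Tac1 is also expressed in some of these cells, and their part in its difference was not tested.

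The adipose genes ranged from Retn (1.69 ± 0.23) to Cfd (5.93 ± 0.52), and 7 of 7 had a diet difference below 0 in the colon, with a median of -0.40 and none past the threshold, where 51.7% of all probes were below 0. The mean of 6 of them differed by -0.45, and by -0.18 without HF-low-suf replicate 5. The hepatocyte genes were lower in the colon, from Cyp2e1 (-4.35 ± 0.22) to Apoa2 (-6.68 ± 0.09). Of the 9 mast cell genes 1, Mcpt1, was lower in the colon and none higher.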
